A study of Mus musculus with 6 samples.

Results

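The hypoxia-inducible factors (HIFs) and the genes that sense oxygen for them were followed in RNA of sorted mouse heart cells. The set is fixed by 10 gene symbols, and all 10 were found among the 23404 readable genes of the deposited table. It holds the 3 alpha subunits Hif1a, Epas1 and Hif3a, their partner Arnt, the 3 prolyl hydroxylases Egln1, Egln2 and Egln3, the ubiquitin ligase component Vhl, and Ndrg1 and Pfkfb3, which are known to be induced by low oxygen. Cardiomyocyte preparations of C57BL/6J mice had been sorted by their own fluorescence (FITC) and by forward scatter (FSC), which grows with particle size. The FITChigh gate holds cells labelled FITChigh/FSCdim, and the FITCdim gate those labelled FITCdim/FSChigh. Each gate gave 3 libraries, which the series text calls biological replicates. No allele, treatment, age or sex is given in the labels used here, and both gates carry the same strain and cell type labels.

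HIF works as a pair of an alpha subunit and ARNT. With oxygen present, the prolyl hydroxylases mark the alpha subunit, VHL recognises the mark and the subunit is destroyed. With oxygen scarce, the alpha subunit lasts, enters the nucleus and switches on genes for sugar use, vessel growth and survival. Much of this control acts on protein, which was not measured here. Epas1 encodes HIF-2 alpha, first known from endothelium, and Hif1a encodes the more widely expressed HIF-1 alpha.

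The HIF pair binds a short core, ACGTG or GCGTG, so the start regions of the members were searched for it on both strands in the 250 bases before each RefSeq start (GRCm38.p6). Such windows were found for 8 of the 10 members, and not for Epas1 and Ndrg1. The windows of Hif1a, of Egln3 and of the downstream start of Pfkfb3 are shown as examples, with matches in capitals. Any link between matches and the differences between the gates was not tested. Hif1a, chr12:73907617-73907866, plus strand, and Egln3, chr12:54203875-54204124, minus strand, precede Pfkfb3, chr2:11502091-11502340, minus strand.
Hif1a: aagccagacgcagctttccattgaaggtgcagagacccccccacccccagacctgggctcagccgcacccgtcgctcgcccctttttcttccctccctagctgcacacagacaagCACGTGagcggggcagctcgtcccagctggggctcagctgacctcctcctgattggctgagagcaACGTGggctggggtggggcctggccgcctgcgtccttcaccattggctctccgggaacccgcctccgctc
Egln3: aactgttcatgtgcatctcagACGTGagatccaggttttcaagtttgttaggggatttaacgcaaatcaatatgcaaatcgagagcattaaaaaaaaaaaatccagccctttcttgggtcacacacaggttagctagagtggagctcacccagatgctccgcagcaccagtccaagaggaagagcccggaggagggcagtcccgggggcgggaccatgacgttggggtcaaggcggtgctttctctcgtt
Pfkfb3: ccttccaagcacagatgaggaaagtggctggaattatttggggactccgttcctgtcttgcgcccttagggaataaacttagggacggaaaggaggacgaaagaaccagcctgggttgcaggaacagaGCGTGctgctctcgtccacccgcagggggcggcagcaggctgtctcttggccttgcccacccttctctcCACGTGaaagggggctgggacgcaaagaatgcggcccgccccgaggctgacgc
Hif1a had 3 matches and the downstream Pfkfb3 window 3, and in each of them 2 of the matches are the overlapping strands of a CACGTG, which is also an E-box. Egln3 had 1 match, which began 229 bases before the start. The window of the upstream start of Pfkfb3, not shown, held 1 match. Of 10 windows of the 8 members, 9 held at least 1 match and the window of Vhl held 0. Over all 32851 RefSeq windows of that length, 38.6% held a match. The core motif contains CG, and the GC content of the members' windows ran from 48% for the second start of Egln2 to 86% for Egln1, with a median of 52.4% over all windows. A match is a run of letters and not a shown binding site.

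Levels are deposited values, which are read counts that the authors adjusted to a common library size. Recovered reads numbered 1589825 to 2931045 per FITChigh library and 1705626 to 3345994 per FITCdim library. The adjusted values added up to 2333473 to 2443707 per FITChigh library and 2030583 to 2112872 per FITCdim library, so rescaling to a common total lowers FITChigh against FITCdim. All 12 cardiomyocyte markers were at or above 3284 adjusted read counts in every library. Their summed level was 406977 to 438700 adjusted read counts in FITChigh and 263004 to 313150 in FITCdim. Both gates also held RNA of other cells, with more of it in FITCdim. The 12 endothelial markers summed to 724 to 1025 in FITChigh and 5149 to 5718 in FITCdim. The 8 fibroblast markers summed to 45.9 to 68.9 in FITChigh and 376 to 717 in FITCdim, with Tcf21 at 0 in FITChigh. The 8 leukocyte markers summed to 65.6 to 97.6 in FITChigh and 321 to 725 in FITCdim, with Cd3e and Cd79a at 0 in FITChigh. The 8 pericyte and smooth muscle markers summed to 1383 to 1836 in FITChigh and 1880 to 2475 in FITCdim, of which Abcc9, not called, made up 1228 on average in FITChigh and 1149 in FITCdim (log2 fold change 0.10). The 6 atrial markers, listed for a heart chamber rather than for another cell type, summed to 202 to 448 in FITChigh and 1170 to 2481 in FITCdim. Whether each of them, Nr2f2 included, is confined to cardiomyocytes was not tested. Of the 4 erythroid markers listed, Hba-a1 was listed at 0 in all libraries and Alas2 had 0 in FITChigh and 10 reads over FITCdim. The symbols Hbb-bs and Hbb-bt were not found among the readable genes, so only Alas2 had reads.

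Of the 10 members, Epas1, Ndrg1 and Pfkfb3 were lower in FITChigh, and 7 did not pass the test. Testing used limma-trend on log2(value + 1) over all 12907 genes that passed a filter on low values, with Benjamini-Hochberg adjustment at 0.05. Lower calls made up 13.5% of all genes tested, higher calls 2.51% and both together 16.1%. None of the members was called higher by limma-trend or by limma-voom on recovered reads (0 of 10 in each), while 2 were higher at an unadjusted p under 0.05. The share of all genes at that unadjusted p was not worked out, so the 2 have no background to be set against. The median log2 fold change was -0.07 over the members and -0.01 over all genes tested. All 10 passed the filter. The gates did not overlap for 3 members that were lower in FITChigh and 2 that were higher. Over all genes tested, that held for 20.2% in the lower direction and 11.4% in the higher direction, 31.6% in all.

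**Figure D1:**
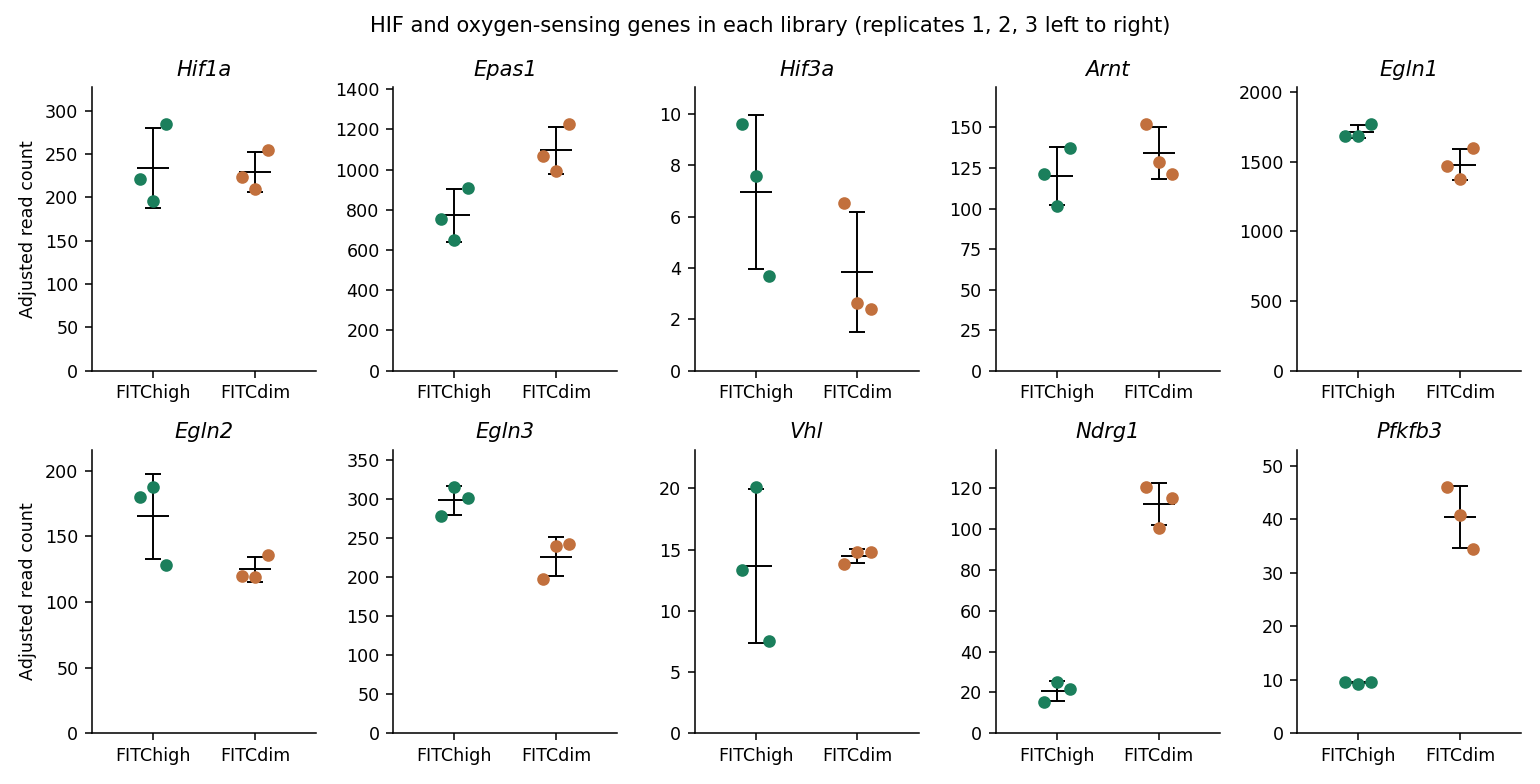
Adjusted read counts of the 10 genes in each library, with FITChigh in green and FITCdim in orange; each point is a library, the wide tick is the mean and the bar 1 SD over 3 libraries. The points of the gates lie apart for Epas1, Ndrg1 and Pfkfb3 (lower in FITChigh) and for Egln1 and Egln3 (higher in FITChigh, not called), and those of Hif1a overlap at means of 234 and 229.

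Epas1 (chromosome 17, 86753700 to 86833410 in mm10) was the most abundant alpha subunit in both gates, and it was called lower in FITChigh. It stood at 753, 652 and 911 adjusted read counts in FITChigh, against 1069, 994 and 1226 in FITCdim. Every FITChigh library lay below every FITCdim library. The means were 772 ± 130.4 in FITChigh and 1096 ± 118 in FITCdim (SD over 3 libraries each), from 2355 and 3640 recovered reads. The log2 fold change was -0.51 (SE 0.15, limma adjusted p = 0.023), which is 1.43-fold lower. The direction held under all 15 alternatives, from -0.75 to -0.40, and the call held in 12 of them. It was lost without FITChigh replicate 1 (adjusted p = 0.088), without FITChigh replicate 2 (0.1) and without FITCdim replicate 3 (0.074). In bulk RNA, fewer cells of a type and less RNA per cell cannot be told apart. Endothelial markers moved the same way, with 12 of 12 lower and a median of -2.66 on the log2 scale (6.33-fold). So did most tested markers of fibroblasts, of leukocytes, of pericytes and smooth muscle, and of atria. The part of any of these lists in the difference of Epas1 was not tested.

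Hif1a (chromosome 12, 73901375 to 73947530) stood at 221, 195 and 284 adjusted read counts in FITChigh, against 223, 209.5 and 255 in FITCdim. The FITCdim values lay inside the range of the FITChigh values. The means were 234 ± 45.7 in FITChigh and 229 ± 23.4 in FITCdim (SD over 3 libraries each). The log2 fold change was 0.02 (SE 0.16, limma adjusted p = 0.96), with a 95% interval of -0.32 to 0.35, which contains 0. Its sign was negative with 1 common total per library (-0.19) and after quantile normalization (-0.036). Over all its annotated transcripts in GENCODE, 330 of 5896 exonic bases of Hif1a also lie in the antisense gene Gm15283 and 148 in Gm49321 on the same strand. The kit marks strand, but whether the counting used it is not given in the sources used here.

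The contrast of both subunits was taken within each library, where library scaling nearly cancels. Log2 Hif1a minus log2 Epas1 was -1.76, -1.73 and -1.68 in FITChigh, against -2.26, -2.24 and -2.26 in FITCdim. The libraries of a gate lay close together and the gates lay far apart. The means were -1.72 ± 0.04 in FITChigh and -2.25 ± 0.01 in FITCdim (SD over 3 libraries each), a difference of 0.53 on the log2 scale. The exact two-sided permutation test over 20 assignments gave p = 0.1, and no smaller p is possible with 3 libraries a gate. Leaving out any library moved the difference to between 0.50 and 0.55.

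Divided by the exon length of their protein-coding transcripts (5516 bases for Epas1 and 5448 for Hif1a), Epas1 exceeded Hif1a in every library. The ratio of the per-length levels was 3.36, 3.30 and 3.16 in FITChigh, against 4.73, 4.69 and 4.74 in FITCdim. Hif3a (chromosome 7, 17031507 to 17062427), a paralog some of whose isoforms restrain the others, was scarce in both gates. Its values were 9.60, 7.57 and 3.70 adjusted read counts in FITChigh, against 6.54, 2.63 and 2.39 in FITCdim, from 20 and 14 recovered reads. The ranges overlapped, and the log2 fold change of 0.73 (SE 0.49, limma adjusted p = 0.36) had a 95% interval of -0.30 to 1.77. Of the summed per-length level of the 3 alpha subunits, Epas1 took 76.1% ± 0.320 in FITChigh and 82.3% ± 0.145 in FITCdim (SD over 3 libraries each). Hif1a took 23.3% ± 0.618 in FITChigh and 17.4% ± 0.103 in FITCdim. Hif3a took 0.612% ± 0.306 in FITChigh and 0.249% ± 0.156 in FITCdim. These shares restate the same counts and carry no test.

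**Figure D2:**
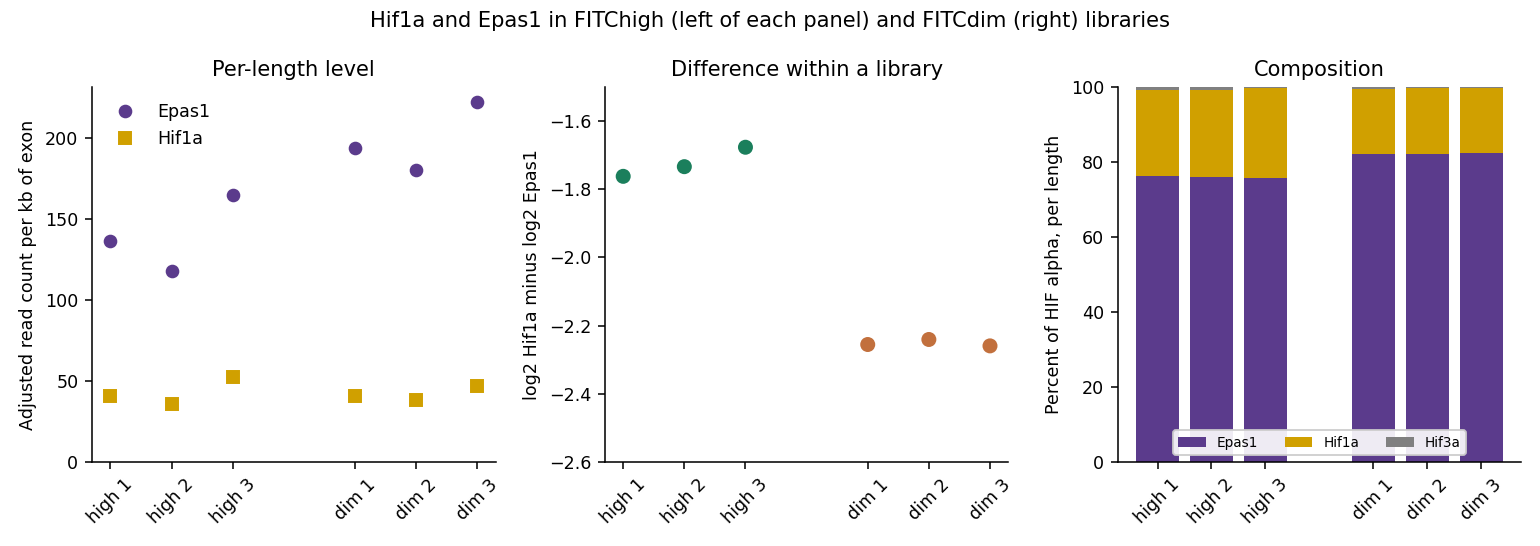
Left, adjusted read counts per kb of exon for Epas1 (circles) and Hif1a (squares) in each library; middle, log2 Hif1a minus log2 Epas1 in each library; right, percent of the summed per-length level of the 3 alpha subunits. In the middle panel the FITChigh libraries lie between -1.76 and -1.68 and the FITCdim libraries between -2.26 and -2.24.

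The genes whose levels followed each subunit most closely over the 6 libraries were taken from 6452 other genes above the median level, with Pearson r on the log2 scale as a description. For Epas1 they were Dlc1, a tumour suppressor gene (r = 0.997), and the kinases Map3k3 and Mast4 (0.996 for both). Dlc1 stood at 224, 194 and 303 adjusted read counts in FITChigh, against 388, 342 and 447 in FITCdim, so it was lower in every FITChigh library. For Hif1a they included the GTPase Rab10 (r = 0.984) and Cnot1, the scaffold of an RNA deadenylase complex (r = 0.982). Rab10 stood at 379.9, 341 and 484 in FITChigh, against 406, 363 and 451 in FITCdim, with overlapping ranges. An r over 0.95 was reached by 87 genes for Epas1 and by 28 for Hif1a, and the 6 points share their gates and library depths. In both gates replicate 3 was the highest library and replicate 2 the lowest for each of Epas1 and Hif1a.

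Arnt (chromosome 3, 95434388 to 95497240), the partner subunit of all 3, stood at 121, 101 and 137 adjusted read counts in FITChigh, against 152, 129 and 121 in FITCdim. The ranges overlapped. The log2 fold change was -0.16 (SE 0.17, limma adjusted p = 0.59) with a 95% interval of -0.52 to 0.20.

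The prolyl hydroxylases had estimates above 0, and none passed the test. Egln1 (chromosome 8, 124908587 to 124949324) encodes PHD2, the main oxygen sensor of most cells, and had the highest level of the members. It stood at 1684, 1686 and 1767 adjusted read counts in FITChigh, against 1467, 1371 and 1594 in FITCdim. Its FITChigh libraries all lay above its FITCdim libraries, but the log2 fold change was 0.22 (SE 0.13, limma adjusted p = 0.29; 95% interval -0.05 to 0.48). After quantile normalization it was -0.073. Egln3 (chromosome 12, 54178981 to 54203860) encodes PHD3, whose gene is itself induced by HIF. It stood at 279, 316 and 302 in FITChigh, against 197, 239.8 and 243 in FITCdim. These ranges did not overlap either, and the log2 fold change of 0.40 (SE 0.14, 95% interval 0.10 to 0.70) had an unadjusted p of 0.011 and an adjusted p of 0.065 in limma.

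Egln2 (chromosome 7, 27158658 to 27166802) encodes PHD1. It stood at 179.6, 188 and 128 adjusted read counts in FITChigh, against 119.8, 119 and 136 in FITCdim. FITChigh replicate 3 lay below FITCdim replicate 3, so the ranges overlapped. The log2 fold change was 0.38 (SE 0.17, limma adjusted p = 0.15), and without FITChigh replicate 3 it was 0.56 and called higher (adjusted p = 0.037). With 1 common total per library, the log2 fold changes of Egln1, Egln2 and Egln3 were 0.01, 0.18 and 0.20. Of the summed per-length level, Egln1 took 71.8% ± 2.23 in FITChigh and 74.4% ± 1.74 in FITCdim. Egln3 took 16.9% ± 0.839 in FITChigh and 15.4% ± 1.67 in FITCdim, and Egln2 took 11.3% ± 2.19 in FITChigh and 10.2% ± 0.0973 in FITCdim (SD over 3 libraries each). The ranges over the libraries overlapped for each of the 3 genes, and no test was made.

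Vhl (chromosome 6, 113623959 to 113631633) was low, with 38 recovered reads over FITChigh and 48 over FITCdim. Its values were 13.4, 20.1 and 7.52 adjusted read counts in FITChigh, against 13.8, 14.8 and 14.8 in FITCdim. The FITChigh values spread on both sides of the FITCdim values. The log2 fold change of -0.17 (SE 0.37, limma adjusted p = 0.81) had a 95% interval of -0.96 to 0.61.

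**Figure D3:**
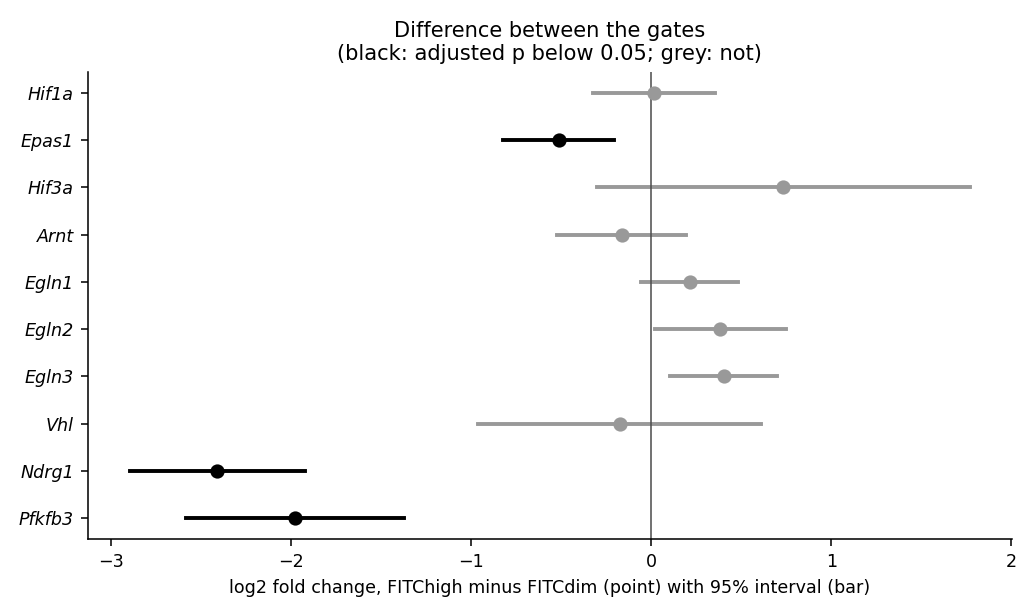
Log2 fold change of each gene, FITChigh minus FITCdim, as a point with its 95% interval from limma as a bar, in black where the adjusted p was below 0.05. Epas1 at -0.51, Ndrg1 at -2.41 and Pfkfb3 at -1.98 are the black points, and the intervals of Hif3a and Vhl are the widest.

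The largest differences were those of the responsive genes. Ndrg1 (chromosome 15, 66929318 to 66969640), a stress gene linked to growth arrest and myelin, stood at 15.2, 25.3 and 21.6 adjusted read counts in FITChigh, against 121, 101 and 115 in FITCdim. The highest FITChigh value was far below the lowest FITCdim value. The means were 20.7 ± 5.11 in FITChigh and 112 ± 10.3 in FITCdim (SD over 3 libraries each), and the log2 fold change was -2.41 (SE 0.23, limma adjusted p = 2.1e-06), which is 5.31-fold lower. It was called under all 15 alternatives, from -2.61 to -2.21. Over all its transcripts in GENCODE, 419 of 6596 exonic bases of Ndrg1 lie in the antisense gene Gm17035 and 137 in Gm2895 on the other strand.

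Pfkfb3 (chromosome 2, 11471433 to 11554077) encodes an enzyme that makes fructose 2,6-bisphosphate, the activator of glycolysis, and is known for driving sugar use in endothelium. It stood at 9.54, 9.31 and 9.54 adjusted read counts in FITChigh, from 10, 6 and 12 reads, against 46.1, 40.8 and 34.5 in FITCdim, from 75, 33 and 30 reads. The gates did not overlap. The log2 fold change was -1.98 (SE 0.28, limma adjusted p = 1.2e-04), which is 3.94-fold lower, and it was called under all 15 alternatives, from -2.17 to -1.63. Both genes fell together with the marker lists of other cells and with the atrial list, drawn up for a heart chamber. Lower were 12 of 12 endothelial, 7 of 7 tested fibroblast and 6 of 6 tested leukocyte markers. So were 6 of 8 pericyte and smooth muscle and 6 of 6 atrial markers. The medians of these lists were -2.66, -2.70, -2.40, -2.29 and -3.21 on the log2 scale. Their part in the falls of Ndrg1 and Pfkfb3 was not tested.

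Divided by exon length, the order of the members was the same at the top of both gates. In FITChigh, Egln1 led with 477 ± 13.2 adjusted read counts per kb, followed by Epas1 with 139.96 ± 23.6 and Egln3 with 112 ± 7.07, whose ranges overlapped. Egln2 followed with 74.9 ± 14.6, Hif1a with 42.9 ± 8.39 and Arnt with 24.8 ± 3.74. Ndrg1 with 7.16 ± 1.77 and Vhl with 4.89 ± 2.26 overlapped, ahead of Pfkfb3 with 1.71 ± 0.0249 and Hif3a with 1.07 ± 0.461 (SD over 3 libraries each). In FITCdim the order ran Egln1, Epas1, Egln3, Egln2, Hif1a, Ndrg1, Arnt, Pfkfb3, Vhl and Hif3a, and Hif1a and Ndrg1 were the only neighbours whose ranges overlapped. Ndrg1 reached 38.8 ± 3.57 adjusted read counts per kb in FITCdim, close to the 42.1 ± 4.30 of Hif1a there (SD over 3 libraries each).

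Of 21 partners and regulators of the pathway outside the members, all tested, 1 was called higher (4.76%, against 2.51% of all genes tested), 1 was called lower (4.76%, against 13.5%) and 19 did not pass. The median log2 fold change was -0.02. Cited2, a HIF-induced protein that competes with HIF for its coactivators, stood at 262, 271 and 223 adjusted read counts in FITChigh, against 155, 199 and 168 in FITCdim (log2 fold change 0.54, SE 0.15, limma adjusted p = 0.021). The gates did not overlap, but the call was lost with 1 common total (0.33, adjusted p = 0.15), without FITChigh replicate 1 (adjusted p = 0.093) or 2 (0.07) and without FITCdim replicate 1 (0.11). Arnt2, a paralog of Arnt best known from brain, was at 0 in each FITChigh library, against 1.64, 3.60 and 2.30 adjusted read counts in FITCdim, from 0 and 8 reads. It is the 1 lower call counted above. It passed the filter on low values through FITCdim alone, so nothing is drawn from that call. A floor of 3 reads over the FITChigh group would put it 2.48-fold lower. That is a description and not a bound, since it leaves out the counting error of the 8 FITCdim reads. The most abundant, the chaperone gene Hsp90ab1, stood at 4682 ± 369 in FITChigh and 4410.5 ± 451 in FITCdim (SD over 3 libraries each; log2 fold change 0.09, limma adjusted p = 0.75).

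Over both lists of known HIF targets, 2 of 54 tested genes rose (3.7%, against 2.51% of all genes tested), 9 fell (16.7%, against 13.5%) and 43 did not pass. These shares are near those of all genes. Among the 9, Lox, Loxl2 and Cxcr4 passed the filter on low values only with FITCdim, which limits that count. Of 22 tested genes of glycolysis and metabolism, 2 fell (9.09%, against 13.5% of all genes tested) and 20 did not pass, with a median log2 fold change of 0.24. None was called higher by limma-trend (0 of 22), while 6 were higher at an unadjusted p under 0.05 and limma-voom called 1. The share of all genes at that unadjusted p was not worked out, so the 6 have no background to be set against. Those that fell were low genes. Ndufa4l2, a small mitochondrial protein known as a HIF target, stood at 6.71, 7.32 and 2.95 adjusted read counts in FITChigh, against 20.6, 18.7 and 22.7 in FITCdim (log2 fold change -1.77, SE 0.38, limma adjusted p = 0.0039). Cox4i2, the low-oxygen isoform of a cytochrome c oxidase subunit, stood at 3.82, 5.73 and 2.24 in FITChigh, against 10.7, 8.92 and 15.7 in FITCdim (-1.40, SE 0.43, adjusted p = 0.035). The gates did not overlap for either, against 20.2% of all genes tested without overlap in the lower direction. Most pericyte and smooth muscle markers, and the endothelial, fibroblast and leukocyte markers tested, were lower in the same libraries. Their part in the falls of Ndufa4l2 and Cox4i2 was not tested. The call for Cox4i2 was lost without FITChigh replicate 1 (adjusted p = 0.077) or 3 (0.1), without FITCdim replicate 1 (0.085) or 3 (0.16) and after quantile normalization (0.24). The most abundant, the glycolytic enzyme gene Aldoa, stood at 7979 ± 862 in FITChigh and 6393 ± 1004 in FITCdim (SD over 3 libraries each; log2 fold change 0.33, limma adjusted p = 0.23). Of the 4 listed genes not tested, Eno1 and Car12 were listed at 0 in all libraries, Aldoc had 1 read and Car9 had 3, all in FITCdim. The counting method is not given, so a listed 0, as for Eno1, does not show that the RNA was absent.

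Of 32 tested HIF targets of other functions, 2 rose (6.25%, against 2.51% of all genes tested) and 7 fell (21.9%, against 13.5%). The other 23 did not pass, and the median log2 fold change was -0.11. Limma-voom called 2 higher and 5 lower. Vegfa, the ligand that drives vessel growth, was the most abundant and stood at 1814, 1693 and 1885 adjusted read counts in FITChigh, against 1200.2, 1223 and 1251 in FITCdim. Its FITChigh values were all higher (log2 fold change 0.55, SE 0.12, limma adjusted p = 0.0052), but it was not called with 1 common total (0.35, adjusted p = 0.068) or after quantile normalization (0.25, adjusted p = 0.19). Of the 12 cardiomyocyte markers, limma-trend called 2 higher and left 10 uncalled, and limma-voom called 7 higher. Their median log2 fold change was 0.47. Their summed level was higher by 0.54 on the log2 scale. Much of that sum is Myh6, not called, with means of 159480 in FITChigh and 96706 in FITCdim. The part of these markers in the rises of Vegfa and Cited2 was not tested. Flt1, a receptor for that ligand on endothelium, stood at 61.0, 67.7 and 75.9 in FITChigh, against 516, 386 and 481 in FITCdim (-2.73, SE 0.16, adjusted p = 3.7e-08). Pdgfb, a growth factor by which endothelium recruits pericytes, stood at 14.2, 18.7 and 26.8 in FITChigh, against 98.2, 91.8 and 106 in FITCdim (-2.29, SE 0.24, adjusted p = 6.4e-06). Loxl2, a collagen crosslinking enzyme, stood at 4.80, 0.310 and 4.03 in FITChigh, against 20.5, 25.6 and 17.3 in FITCdim (-2.70, SE 0.51, limma adjusted p = 0.0015). The chemokine receptor gene Cxcr4 stood at 1.90, 0.190 and 3.31 in FITChigh, against 11.9, 10.2 and 16.9 in FITCdim (-2.48, SE 0.51, limma adjusted p = 0.0026). None of these 4 genes, named for the largest changes among those called, overlapped between the gates. Over all genes tested, 20.2% did not overlap in the lower direction. Loxl2 rested on 10 recovered reads over FITChigh and 70 over FITCdim, and Cxcr4 on 6 and 43. Endothelial, fibroblast and leukocyte markers, and most pericyte and smooth muscle markers, were lower in the same libraries. The part of these markers in the falls of these targets was not tested. The other gene that rose was the histone demethylase gene Kdm4b, and the others that fell were Lox, Rora and Hmox1, named here after their values were seen. Kdm4b lost its call in 5 alternatives, Lox in 6, Hmox1 in 7 and Rora in 8, with Lox and Rora among those not called by limma-voom (adjusted p = 0.059 for Lox and 0.053 for Rora). Loxl2 and Cxcr4 were below 1 adjusted read count in FITChigh replicate 2, and Lox in FITChigh replicates 2 and 3 (0.0966 and 0.756). These genes thus passed the filter on low values only with FITCdim, which limits their lower calls.

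**Figure D4:**
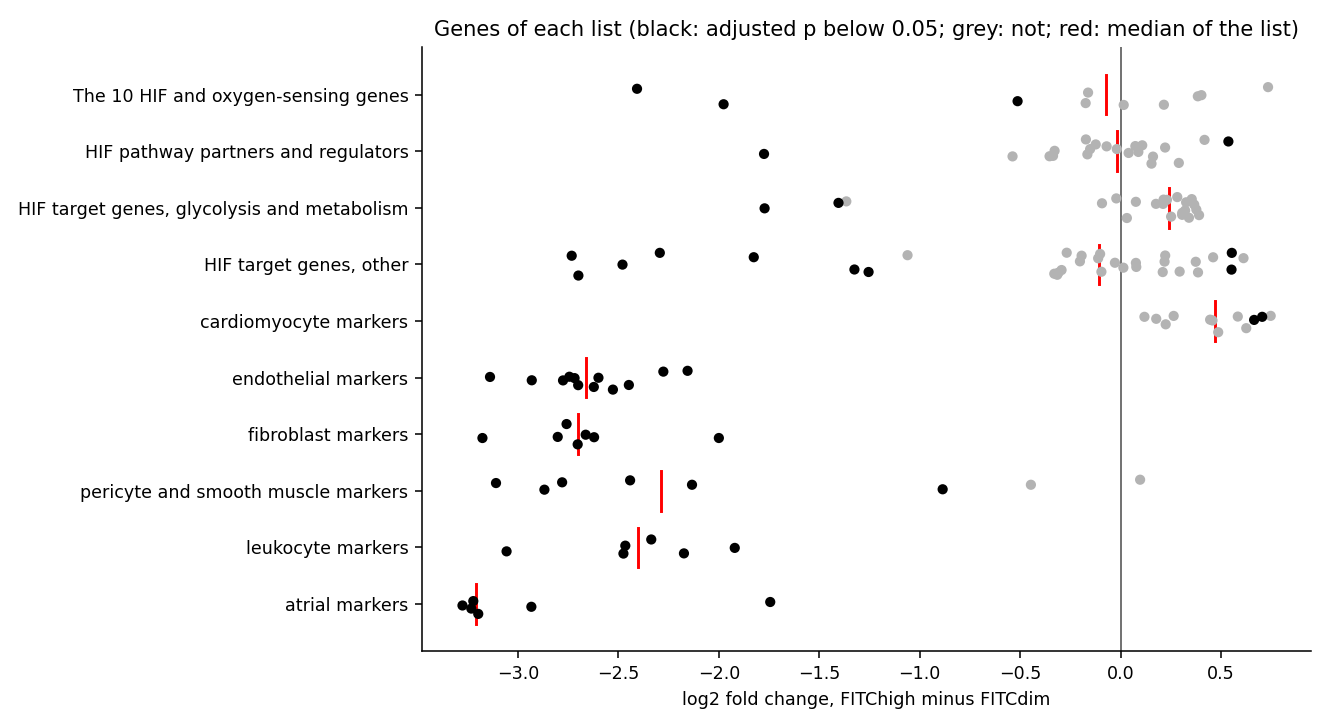
Log2 fold change, FITChigh minus FITCdim, of each tested gene of the 10 members, of 3 lists of the HIF pathway and of 6 lists of cell type markers; black points had an adjusted p below 0.05 and red lines are list medians. Most pathway and target genes lie near 0. Ndrg1 at -2.41 lies inside the ranges of the endothelial, fibroblast, leukocyte, pericyte and smooth muscle, and atrial markers. Pfkfb3 at -1.98 lies inside those of the leukocyte, pericyte and smooth muscle, and atrial markers. It lies above those of the endothelial and fibroblast markers.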

How the data were processed

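Polyadenylated RNA of 6 sorted samples, 3 FITChigh and 3 FITCdim, was sequenced from strand-specific libraries as paired reads of 75 bases, per the labels' protocols. STAR 2.5, edgeR and mm10 are named in the submitters' processing notes, without roles or settings; the sources used here give no counting method or annotation. The deposited table holds signal values made by the authors: for each gene and library, reads adjusted to the same library size and not divided by gene length. Of 23410 gene lines, 6 were garbled and left out. Columns were matched to samples by title.

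Whole reads were sought by undoing a negative binomial quantile adjustment, with a dispersion of 0.0203 fitted to the table. At least 99.9872% of values per library came out whole within 0.1, and 1 read was worth 0.607 to 1.54. Reads serve for depth and for limma-voom. The counting error, floors included, ignores amplification. The 12907 genes that reached 1 in 3 or more libraries went into limma 3.58.1 (R 4.3.3) on log2(value + 1), without a block. Fold changes on this scale understate those of low genes. The p-values rest on the spread over these libraries, whose animals the labels do not name. Replicates were numbered in accession order, and pairs within a gate differed by more than sampling noise (chi-square over its degrees of freedom 3.63 to 6.09).

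The members and lists were chosen with earlier results of these data known. Beside the members, the most abundant gene of each pathway list and up to 4 of its called genes with the largest change are named, and the 3 genes most like Hif1a and Epas1, of which 1 is not reported here. Tceb2, Tceb1, Gnb2l1 and Emr1 were read as Elob, Eloc, Rack1 and Adgre1. Gene positions and exon lengths are from GENCODE M21 on the same build, and start regions from RefSeq. The fit was also run on simulated data with known library sizes, which does not bear on the choice of normalization. No result rests on that run.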

Additional observations from a re-analysis of the deposited data

How the results depend on the processing

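Ndrg1 and Pfkfb3 were lower and called under all 15 alternatives (pseudocounts of 0.5 and 5, no filter, a filter of 10, a common total, quantile normalization, robust limma, limma-voom, a block and each library left out). With a common total the count of all genes called higher was 41, the median over all genes was -0.20, against -0.01 (log2), and higher genes made up 1.84% of calls against 15.6%. After quantile normalization they made up 27.8%, and the median was 0.13. Leaving out a library gave 67 to 341 genes called higher, 1152 to 1672 lower and 0 to 1 members higher. A common total gave -0.19 for Hif1a and -0.12 for Hsp90ab1. Quantile normalization gave -0.036 for Hif1a, -0.073 for Egln1, 0.30 for Vhl, -0.23 for Hsp90ab1 and -0.15 for Aldoa, all uncalled. With a library left out, Hif1a ran from -0.13 to 0.13 and Vhl from -0.49 to 0.17. Relative to FITCdim, the summed marker level with a common total was 0.34 for cardiomyocytes, against 0.54, and -2.79 for endothelium, against -2.58 (log2). The cause was not tested. Hif3a, Arnt2, Cox4i2, Lox and Rora did not reach the filter of 10 and have no value under it, nor has Arnt2 without any one FITCdim library.

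Libraries with the same title tag deviated together at r = 0.07, 0.13 and 0.17, and each library correlated best with its own tag, which is a hint from the data and not the design. With the tag as a replicate block, 1064 genes were called higher and 1 member, Egln3 (adjusted p = 0.0088), and Aldoa was called higher (adjusted p = 0.013). It changed no other call of a named gene. The Hif1a and Epas1 contrast within tags was 0.53 (exact sign-flip p = 0.25, the smallest possible). Hif3a, Vhl and Pfkfb3 in FITChigh rest on 20, 38 and 28 reads, which limits what can be detected.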
